A study of Sus scrofa with 79 samples.

Results

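Toll-like receptors (TLRs) are membrane proteins of innate immune and epithelial cells that bind conserved parts of microbes. TLR1, TLR2, TLR6 and TLR10 form a related group at the cell surface, in which TLR2 pairs with TLR1 or TLR6 to bind bacterial lipopeptides. TLR4 binds lipopolysaccharide together with LY96 and CD14, and TLR5 binds flagellin. TLR3, TLR7, TLR8 and TLR9 sit in endosomes and bind nucleic acids, namely double-stranded RNA (TLR3), single-stranded RNA (TLR7 and TLR8) and unmethylated CpG DNA (TLR9). In the gut wall they are carried by epithelial cells, macrophages, dendritic cells and lymphocytes, and TLR9 and TLR10 are well known in B cells.

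The 10 receptors TLR1 to TLR10 were looked for among the probes of a porcine 1-colour Agilent expression array, through the accession that the scanner files give for each probe and RefSeq (Sscrofa11.1). Of these, 9 had a probe, and they took 13 of the 43603 probes. TLR4 had 4 probes, TLR3 had 2, and TLR1, TLR2, TLR6, TLR7, TLR8, TLR9 and TLR10 had 1 each. For TLR5 no probe was matched, so it was not analysed here. All 9 measured receptors passed the filter on low signal in every fit. In RefSeq's order TLR10, TLR1 and TLR6 are neighbours on the chromosome, as are TLR7 and TLR8.

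RNA came from piglets of TOPIGS20 sows, whose litters were divided over 3 treatments. Piglets of T1 were left alone apart from blood drawing at day 8. T2 piglets received tulathromycin, a macrolide antibiotic, under the skin of the neck 4 days after birth, and T3 piglets received the same injection plus the farm's routine handling (docking, clipping and weighing). At day 8 each array held a pool of 4 piglets, 1 from each of 4 sows, so an array is an average over 4 animals. Samples of days 55 and 176 carry pool numbers of the same kind, but the study describes the make-up of pools for day 8 only. Different animals were sampled at each age. Whole blood was taken at day 8 (12 arrays), and scrapings of jejunum and ileum at days 8, 55 and 176 (34 and 33 arrays), with 3 or 4 pools for each treatment, tissue and day. Blood RNA and tissue RNA were collected and extracted by different methods. In such bulk samples fewer cells of a type and less RNA per cell cannot be told apart.

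The 2 deposits of these arrays do not give the same tissue and day names. The scanner files' labels, used throughout, and the columns of the authors' log2 value table gave the same names for blood and for both tissues at day 176. For days 8 and 55 the table kept treatment and pool number but exchanged the sets. Its jejunum day 8 columns held the arrays that the scanner files label jejunum day 55 (11 of 12 columns), ileum day 8 held jejunum day 8, jejunum day 55 held ileum day 55 and ileum day 55 held ileum day 8 (11 of 11 columns each). Which names are right was not tested, so every tissue and age result that involves day 8 or day 55 depends on this choice. The tissue and day given to a treatment result in intestine at these days depends on it too. Receptor counts under the table's names are given after those results. Cell markers, pathway genes and the level order were read under the scanner files' labels only.

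No scan session held intestinal arrays of more than 1 age, so age and session cannot be told apart. Jejunum and ileum were scanned together at days 8 and 176 but not at day 55, where tissue and session cannot be told apart, and blood was scanned in another session than the day 8 intestine. Between 42.4% and 75.2% of spots were well above background on the intestinal arrays and 34.8% to 44.1% on the blood arrays. FABP6, the ileal bile acid binding protein, did not separate the tissue labels. At day 8 its log2 signal ran from 5.85 to 16.0 in jejunum and from 5.64 to 16.3 in ileum. Both tissues of a pool differed by a median of 0.291. The value table names these sets ileum of day 8 and ileum of day 55, ages at which different animals were sampled. What this agreement by pool means for the names was not tested. At day 176 the jejunum pools reached 18.7, with T2 pool 8 (7.40) and T3 pool 4 (11.9) apart from the others. The labelled tissues therefore stand here as labels, and results that rest on these 2 pools are also given without them.

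All levels below are log2 processed signals after quantile normalization over the arrays of a fit. They compare arrays within 1 receptor only, since probes differ in brightness. The intestinal levels by tissue and day come from 1 fit over 67 arrays, and differences are means over the 3 treatments in limma's moderated linear model with Benjamini-Hochberg adjustment over all 31993 genes. A difference was called when the adjusted p was under 0.05 and the fold was above 1.5.

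**Figure D1:**
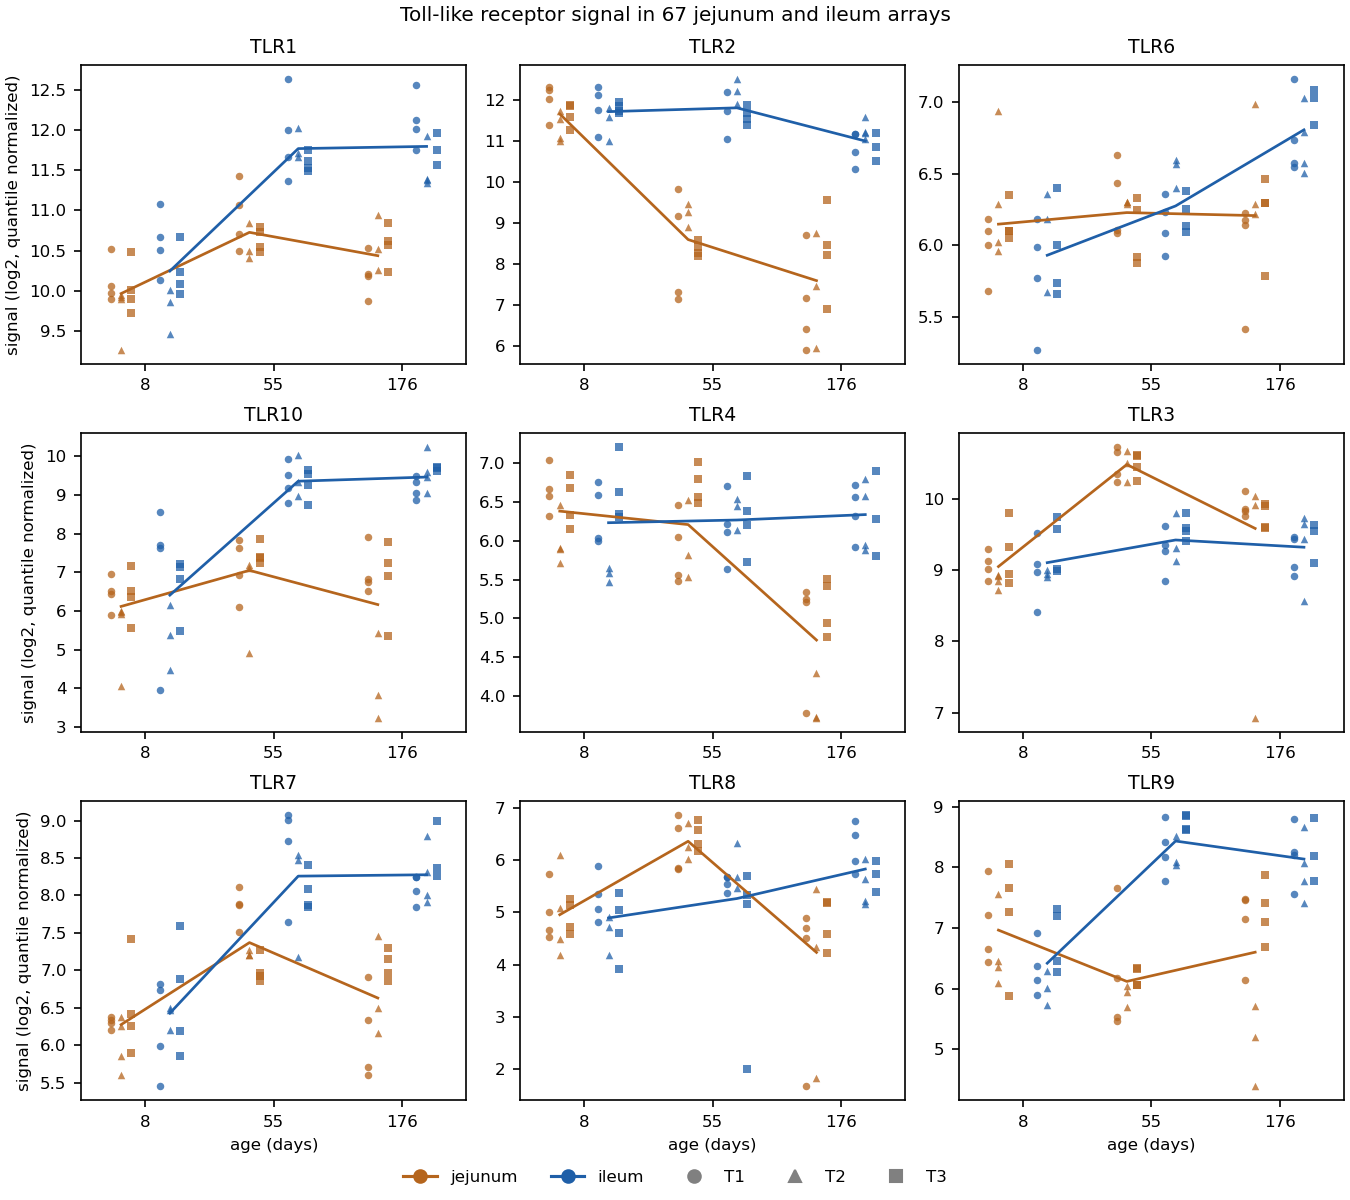
Log2 signal of each of the 9 receptors (one panel each, own vertical axis) in the 67 intestinal arrays by tissue and day, after quantile normalization. Each point is a pool (of 4 piglets at day 8), the symbol gives the treatment, and lines join the means of a tissue. TLR2 in jejunum drops from 11.66 at day 8 to 7.60 at day 176, and TLR10 in ileum rises from 6.41 at day 8 to 9.36 at day 55.

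TLR2, which pairs with TLR1 or TLR6, had the widest spread among places and ages. In jejunum its lowest, median and highest levels were 11.01, 11.66 and 12.32 at day 8, then 7.14, 8.59 and 9.82 at day 55, and 5.90, 7.46 and 9.57 at day 176. In ileum they were 10.99, 11.74 and 12.32 at day 8, 11.05, 11.80 and 12.51 at day 55, and 10.31, 11.16 and 11.59 at day 176. Every jejunum pool of day 8 was thus above every jejunum pool of days 55 and 176, while the ileum kept a high level at all ages. The fall in jejunum between days 8 and 55 was -3.01 (SE 0.28, adjusted p = 2.55e-13), with a further -1.07 (SE 0.29, adjusted p = 0.00169) to day 176. In ileum TLR2 fell only between days 55 and 176, by 0.84 (SE 0.29, adjusted p = 0.0185). The falls of TLR2 after day 55 were uncalled with the slide as a random block and among T1 arrays alone. Their adjusted p rose up to 0.110 in jejunum and 0.361 in ileum. One ileum spot of day 55 (T1 pool 10) was flagged by the scanner software and entered as missing, so TLR2 has 10 ileum values at that age.

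TLR1 showed another order, with the highest levels in the older ileum. Its jejunum levels (lowest, median, highest) were 9.26, 9.94 and 10.52 at day 8, 10.41, 10.71 and 11.43 at day 55, and 9.88, 10.52 and 10.95 at day 176. Its ileum levels were 9.47, 10.14 and 11.08 at day 8, 11.37, 11.66 and 12.64 at day 55, and 11.34, 11.75 and 12.56 at day 176. The ileum pools of day 8 lay below all ileum pools of both later ages. TLR1 rose between days 8 and 55 by 0.75 in jejunum (SE 0.13, adjusted p = 5.98e-06) and by 1.56 in ileum (SE 0.14, adjusted p = 2.31e-14). From day 55 to day 176 the differences were -0.27 in jejunum and 0.02 in ileum, and neither was called.

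TLR6, the other partner of TLR2, varied least. Its jejunum means were 6.15 ± 0.30 (SD, n = 12) at day 8, 6.23 ± 0.22 (n = 11) at day 55 and 6.21 ± 0.39 (n = 11) at day 176. Ileum means were 5.93 ± 0.34, 6.28 ± 0.21 and 6.81 ± 0.24 (n = 11 each), and at day 55 the spot was above background on 8 of 11 ileum arrays. The ileum steps of 0.35 (adjusted p = 0.0150) and 0.53 (adjusted p = 0.000766) stayed under the 1.5-fold limit, and no jejunum step passed.

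TLR10 was the receptor with the steepest rise in ileum. Its ileum levels were 3.96, 6.82 and 8.57 (lowest, median, highest) at day 8, 8.73, 9.34 and 10.03 at day 55, and 8.87, 9.49 and 10.25 at day 176. Jejunum levels were 4.06, 6.19 and 7.17 at day 8, 4.91, 7.23 and 7.87 at day 55, and 3.22, 6.76 and 7.93 at day 176. All ileum pools of days 55 and 176 lay above every jejunum pool and every day 8 pool. The rise in ileum between days 8 and 55 was 3.05 (SE 0.36, adjusted p = 1.99e-10). Jejunum differences of 0.88 up to day 55 (SE 0.35, adjusted p = 0.0336) and -0.998 from there to day 176 (SE 0.36, adjusted p = 0.0186) were also called. The first call was lost (0.72 to 0.83, adjusted p from 0.0530 to 0.0915) without any 1 of 8 jejunum arrays, namely T3 pool 2, T2 pool 8 or T1 pool 12 of day 8 and T3 pool 4, T2 pools 6 and 7 or T1 pools 9 and 12 of day 55. The second was lost (-0.84 to -0.88, adjusted p up to 0.0589) without T2 pool 6 or 7 of day 55 or T3 pool 4 or T2 pool 8 of day 176. Without T2 pool 8 and T3 pool 4 of the day 176 jejunum the later step was -0.68 (adjusted p = 0.130). The jejunum TLR10 spot was not above background on 1 array at day 8, 1 at day 55 and 3 at day 176.

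TLR4, the lipopolysaccharide receptor, had means of 6.18 to 6.38 in 5 of the 6 places and was low in jejunum at day 176. Its levels there (lowest, median, highest) were 3.71, 4.94 and 5.50, against 5.48, 6.47 and 7.02 in jejunum at day 55 and 5.71, 6.39 and 7.05 at day 8. Ileum levels were 5.47, 6.31 and 7.21 at day 8, 5.64, 6.22 and 6.84 at day 55, and 5.81, 6.33 and 6.90 at day 176. The day 176 jejunum pools overlapped with day 55 only at the edge and not at all with day 8. The fall from day 55 was -1.54 (SE 0.18, adjusted p = 5.3e-10), and each of the 4 TLR4 probes gave a called fall, from -1.06 to -1.97. With normexp the TLR4 fall was -0.57, under the fold limit. In level order, none of the steps between the other 5 places was called (steps of 0.01 to 0.09, adjusted p from 0.706 to 0.971).

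TLR3, the receptor for double-stranded RNA, peaked in jejunum at day 55. Its jejunum levels were 8.72, 8.94 and 9.79 at day 8, 10.23, 10.49 and 10.72 at day 55, and 6.92, 9.85 and 10.10 at day 176. Ileum levels stayed between 8.42 and 9.80 at all 3 ages. No jejunum pool of day 55 overlapped with any other place or age. The rise up to day 55 was 1.43 (SE 0.19, adjusted p = 1.24e-08) and the fall after it -0.95 (SE 0.20, adjusted p = 8.19e-05). Both probes moved the same way, by 1.49 and 1.36 and then by -1.28 and -0.61. The lowest day 176 value, 6.92, was that of T2 pool 8, one of the 2 pools low in FABP6. Without it the TLR3 fall after day 55 was -0.61 (adjusted p = 0.000242), and without both pools -0.59 (adjusted p = 0.000531).

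TLR7 and TLR8, the neighbouring receptors for single-stranded RNA, differed in place. TLR7 in jejunum was 5.59, 6.28 and 7.42 at day 8, 6.86, 7.27 and 8.11 at day 55, and 5.61, 6.85 and 7.46 at day 176. In ileum TLR7 was 5.45, 6.47 and 7.60 at day 8, 7.18, 8.40 and 9.07 at day 55, and 7.85, 8.25 and 8.99 at day 176. TLR7 rose in both tissues up to day 55, by 1.08 in jejunum (SE 0.20, adjusted p = 6.88e-06) and by 1.82 in ileum (SE 0.20, adjusted p = 3.42e-11). It then fell in jejunum by 0.72 (SE 0.20, adjusted p = 0.00257) while the ileum difference of 0.06 was not called. The jejunum fall of TLR7 was uncalled with 75th percentile scaling (-0.37, adjusted p = 0.102), with normexp (-0.47, under the fold limit) and with the slide as a random block (-0.65, adjusted p = 0.0584). TLR8 was highest in jejunum at day 55, with 5.82, 6.32 and 6.86, above 4.19, 4.86 and 6.09 at day 8 and 1.67, 4.58 and 5.45 at day 176. In ileum TLR8 was 3.91, 4.90 and 5.88, then 2.00, 5.54 and 6.32, and 5.16, 5.74 and 6.75. The jejunum rise of TLR8 was 1.40 (SE 0.33, adjusted p = 0.00037) and the fall -2.15 (SE 0.34, adjusted p = 6.43e-07). No ileum step of TLR8 was called, and at day 55 it was not well above background on any of the 4 ileum T3 arrays, though on all 7 arrays of T1 and T2. Those T3 arrays had 42.4% to 52.0% of spots above background, against 62.6% to 73.1% for T1 and T2. Set at their lowest signal above background, the T3 spots averaged 6.41, above the TLR8 means of T1 (5.51) and T2 (5.79) in the day 55 fit. No lower level in T3 can therefore be read from the missing detection.

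TLR9, the CpG DNA receptor, moved in opposite directions in the 2 tissues. Its jejunum levels were 5.87, 6.94 and 8.05 at day 8, 5.47, 6.05 and 7.66 at day 55, and 4.39, 7.09 and 7.87 at day 176. Its ileum levels were 5.73, 6.29 and 7.30 at day 8, 7.77, 8.52 and 8.86 at day 55, and 7.40, 8.18 and 8.81 at day 176. The ileum pools of day 8 lay below all ileum pools of both later ages. Up to day 55 TLR9 fell in jejunum by 0.86 (SE 0.24, adjusted p = 0.00194) and rose in ileum by 2.03 (SE 0.24, adjusted p = 2.84e-10). The TLR9 fall in jejunum was uncalled with normexp background correction (-0.52, under the fold limit), with the slide as a random block (-0.81, adjusted p = 0.0693) and among T1 arrays alone (-0.85, adjusted p = 0.146).

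**Figure D2:**
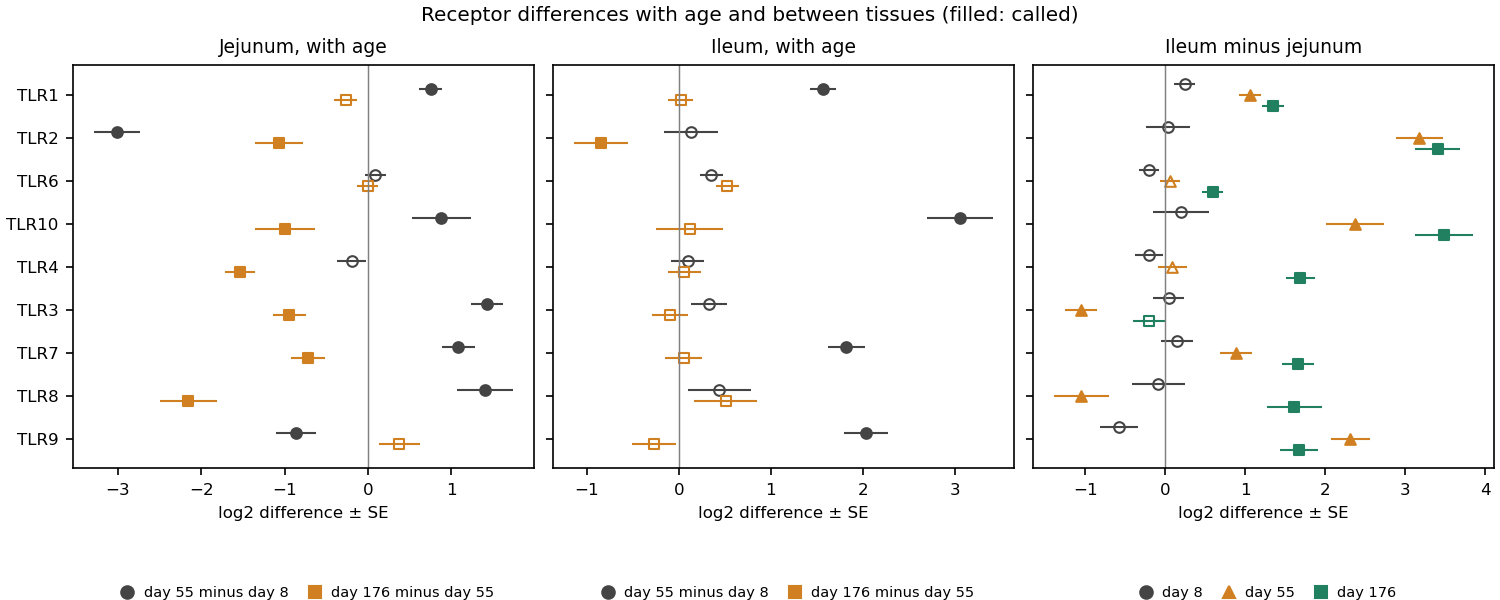
Log2 differences of the 9 receptors between ages within jejunum and ileum, and between ileum and jejunum at each day, with bars of 1 SE from the limma fit over 67 arrays; filled points passed the adjusted p and fold limits. TLR2 in jejunum (-3.01, day 55 minus day 8) and TLR10 in ileum (3.05) lie furthest from 0 among the age differences, and no receptor is filled for ileum minus jejunum at day 8.

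Counted over the receptors, 7 of 9 were called between days 8 and 55 in jejunum (5 higher, 2 lower), where 37% of all genes were called. Between days 55 and 176 in jejunum 6 of 9 were called, all of them lower, against 36.9% of all genes. In ileum 4 of 9 were called between days 8 and 55, all higher (47.4% of all genes), and 1 of 9 between days 55 and 176, lower (28.5% of all genes). The median difference of the receptors was 0.75 against 0.03 over all genes for the first jejunum step and -0.95 against 0.01 for the second. For the ileum steps the medians were 0.44 against 0.11 and 0.06 against -0.01. The early changes of ileum and jejunum were set against each other by an interaction term, which was called for 6 receptors (34.5% of all genes). Relative to jejunum the ileum change up to day 55 was higher for TLR2 by 3.14, TLR9 by 2.89, TLR10 by 2.17, TLR1 by 0.81 and TLR7 by 0.73, and lower for TLR3 by -1.10. For the later step 4 receptors were called (30.4% of all genes), and the ileum change was above the jejunum change by 2.66 for TLR8, 1.60 for TLR4, 0.85 for TLR3 and 0.78 for TLR7. With 1 array left out, the early TLR7 interaction was uncalled (0.63 to 0.70) without any 1 of 9 arrays and the late one (0.63 to 0.70) without any 1 of 4. TLR3 in the late one fell to 0.52, under the fold limit, without jejunum T2 pool 8. Among T1 arrays alone the early interactions of TLR1 (0.51), TLR10 (1.74) and TLR7 (0.84) and the late ones of TLR3 (0.56), TLR4 (1.20) and TLR7 (1.17) were uncalled.

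The comparison of ileum with jejunum depended on age. At day 8 none of the 9 receptors was called by limma (2.39% of all genes were), and 1, TLR9 at -0.58, had an unadjusted p under 0.05. At day 55, 7 of 9 were called (39.7% of all genes). TLR2 was higher in ileum by 3.18 (SE 0.29, adjusted p = 4.88e-13), TLR10 by 2.37 (SE 0.36, adjusted p = 2.09e-07), TLR9 by 2.31 (SE 0.24, adjusted p = 1.82e-11), TLR1 by 1.06 and TLR7 by 0.88. TLR3 was lower in ileum by -1.06 (SE 0.20, adjusted p = 1.18e-05), and TLR8 by -1.05 (SE 0.34, adjusted p = 0.0084), with the 4 undetected T3 spots among its ileum values. The TLR8 call was lost with 75th percentile scaling (-0.36, adjusted p = 0.204), with normexp (-0.43, under the fold limit) and among T1 arrays alone (-0.71, adjusted p = 0.297). At day 176, where both tissues shared a scan session, 8 of 9 were called, all higher in ileum (28.6% of all genes). TLR10 differed by 3.49 (SE 0.36, adjusted p = 1.78e-11), TLR2 by 3.40 (SE 0.29, adjusted p = 3.91e-14), TLR4 by 1.69 (SE 0.18, adjusted p = 4.01e-11), TLR9 by 1.67 (SE 0.24, adjusted p = 1.29e-07) and TLR7 by 1.66 (SE 0.20, adjusted p = 1.69e-09). TLR8 differed by 1.62, TLR1 by 1.34 and TLR6 by 0.59, the last just past the 1.5-fold limit. It fell under that limit (0.53 to 0.58) without any 1 of 9 arrays, namely ileum T3 pools 2 and 3, T2 pools 5 and 6 and T1 pool 11, and jejunum T3 pool 3, T2 pools 5 and 6 and T1 pool 12. TLR3 was at -0.20 and uncalled, and its 2 probes disagreed, at 0.23 and -0.63. The receptor medians were 0.88 at day 55 and 1.66 at day 176, against 0.03 and -0.06 over all genes.

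Levels of immune cell markers went with some of these differences and not with others. CD79A, part of the B cell receptor complex, rose in ileum up to day 55 by 5.87 (SE 0.62, adjusted p = 7.48e-12), and its jejunum difference of 1.21 was not called (adjusted p = 0.0936). Its levels ran from 4.14 to 9.78 in ileum at day 8, 11.9 to 13.3 at day 55 and 10.80 to 13.3 at day 176. In jejunum they ran from 3.20 to 11.1, 7.07 to 11.3 and 1.82 to 10.8 at the same ages. As for TLR10, CD79A was higher in ileum than in jejunum at day 55 (3.92) and day 176 (4.86). All 7 measured T cell markers rose up to day 55 in jejunum (median 2.05) and in ileum (2.37). Of all genes, 37% and 47.4% were called either way in these comparisons. Of monocyte and macrophage markers 4 of 5, and of neutrophil markers 4 of 6, were higher in ileum at day 176 (28.6% of all genes were called either way), where TLR2, TLR4 and TLR8 were too. At day 55, where TLR2 was higher in ileum by 3.18, 1 of 5 monocyte and macrophage markers was higher in ileum, 2 were lower, and none of the 6 neutrophil markers was called by limma, with 2 at an unadjusted p under 0.05 (39.7% of all genes). The mean of the monocyte and macrophage markers ran from 9.81 to 10.71 in ileum and 7.90 to 9.70 in jejunum at that age, and that of the neutrophil markers from 8.32 to 11.02 and 7.37 to 9.78. The part of these cells in the receptor levels was not tested.

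Under the value table's names, with the 66 arrays that a column matched, the same arrays gave another order of ages and tissues. In jejunum 7 of 9 receptors were then called between days 8 and 55 (5 higher, 2 lower, beside 39.8% of all genes), but TLR2 rose by 3.18 and TLR9 by 2.31, while TLR3 fell by 1.06 and TLR8 by 1.05. TLR1, TLR7 and TLR10 rose under both names. From day 55 to day 176 in jejunum 7 of 9 were called, all lower (42.6%), and 5 of them, TLR2, TLR4, TLR7, TLR8 and TLR10, fell under both names. In ileum none was called by limma between days 8 and 55, with 1 at an unadjusted p under 0.05 (2.07% of all genes), and 7 of 9 between days 55 and 176 (48.7%), 6 of them higher, led by TLR10 at 3.16. Between ileum and jejunum 6 of 9 were called at day 8 (2 higher in ileum, 4 lower, beside 36.9%) and 4 of 9 at day 55, all lower in ileum (47.5%), where no call was shared with the other names. The 8 calls of day 176, all higher in ileum, were made under both names. The 6 early interactions were called with the opposite sign.

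In blood at day 8 the receptors were read against the intestine of the same age in a fit over the 35 arrays of day 8 (33056 genes). Blood signals were dimmer throughout, with a 75th percentile of 4.94 to 5.75 on the log2 scale against 8.57 to 10.3 for intestinal arrays, so each comparison is relative to the array's own distribution. Without scaling every receptor was lower in blood than in either tissue, for example TLR1 at 7.72 in blood against 9.94 in jejunum and 10.36 in ileum. After quantile normalization 7 of 9 were called against jejunum (75.6% of all genes) and 6 of 9 against ileum (74%). TLR4 was 7.17 in blood, 5.16 in jejunum and 5.01 in ileum (differences 2.01, SE 0.17, and 2.21, SE 0.18). TLR1 was 10.47 in blood, 8.58 in jejunum and 8.85 in ileum (differences 1.89, SE 0.13, and 1.66, SE 0.13). TLR7 (1.96 and 1.81) was also higher in blood on this scale. TLR8 was called higher too, but was above background on 6 of 12 blood arrays and on 0 of 4 in T2. No fold is given for TLR8, since the lowest signal above background on the T1 and T2 blood arrays (means 6.07 and 5.95) lay above its tissue levels.

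TLR3 was the receptor called lower in blood against both tissues, at 6.06 against 7.69 in jejunum and 7.74 in ileum (differences -1.63, SE 0.19, and -1.67, SE 0.19). TLR9 was well above background on 1 of 12 blood arrays and TLR6 on 1 of 12. TLR9 was called lower than in jejunum, but no fold is given for either, since the lowest signal above background on the T1 and T2 blood arrays lay above the tissue levels. TLR10 averaged 6.36 in blood, 4.85 in jejunum and 5.16 in ileum. Among T1 arrays alone the blood TLR10 spot was above background on 1 of 4 arrays, so no direction is given for them. TLR2 was at 10.56, 10.25 and 10.30, and was not called. The receptor medians were 1.52 against jejunum and 1.29 against ileum, beside 0.21 over all genes for both. Neutrophil markers (6 of 6 measured) were higher in blood by a median of 7.16 and 7.14 (75.6% and 74% of all genes were called either way). Their mean ran from 12.4 to 13.2 in blood, 5.95 to 8.15 in jejunum and 5.95 to 7.94 in ileum. Markers of T cells (7 of 7), platelets (3 of 3) and conventional dendritic cells (1 of 1) were also higher in blood against both tissues. Of monocyte and macrophage markers 3 were higher and 2 lower, and the 1 plasma cell marker was lower. The part of these cells in the receptor levels was not tested. Under the value table's names, 5 of 9 receptors were called against jejunum (71.3% of all genes) and 7 of 9 against ileum (73.8%). TLR1, TLR4 and TLR7 stayed higher and TLR3 lower in blood against both, while TLR2 was higher in blood than in jejunum by 3.33.

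Within blood, TLR10 showed the widest treatment difference, although it did not pass the adjusted test. In the fit of the 12 blood arrays (28849 genes) the T1 pools 9 to 12 were at 1.20, 1.86, 1.77 and 4.68. T2 pools 5 to 8 were at 4.19, 4.75, 4.75 and 5.01, and T3 pools 1 to 4 at 3.62, 4.96, 5.22 and 4.95. Of the T1 pools 3 of 4 lay below every T2 and T3 pool, and pool 12 lay among them. The TLR10 spot was above background on 1 of 4 T1 arrays and on all 8 others. T2 versus T1 differed by 2.29 (SE 0.65, adjusted p = 0.217) and T3 versus T1 by 2.31 (adjusted p = 0.435). Without T1 pool 12 the fit called both differences (adjusted p = 0.00114 and 0.00139), against 3 T1 arrays of which none was above background, so no fold is given. With normexp, and all arrays, T2 versus T1 was 0.49 for TLR10 (adjusted p = 0.168). The T1 blood arrays lay on another slide than those of T2 and T3, so treatment and slide cannot be told apart there.

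The B cell marker CD79A followed a like pattern on the same blood arrays. It was at 1.20, 1.78, 3.32 and 7.75 in T1, at 7.19, 8.55, 7.92 and 7.94 in T2 and at 4.86, 7.68, 7.86 and 7.58 in T3. FABP6 was at 4.95, 4.79, 5.01 and 8.88 in T1, at 8.74, 8.57, 7.49 and 8.08 in T2 and at 8.76, 8.07, 4.35 and 6.33 in T3. T3 pool 3, the lowest in FABP6, had the highest TLR10. The part of these in the TLR10 values was not tested. No receptor was called in blood by limma: 0 of 9 for T2 versus T1 (0.00693% of all genes), T3 versus T1 (0.00347%) and T3 versus T2 (0%), with 3, 2 and 1 at an unadjusted p under 0.05. TLR8 was above background on all 4 T3 arrays (4.01, 3.77, 3.60, 3.81), 2 of 4 T1 arrays (4.06, 3.00, 3.20, 3.71) and none of the T2 arrays (2.72, 2.99, 1.14, 3.101). With the T2 spots raised to the lowest signal above background of their arrays, the TLR8 mean of T3 was 1.40-fold higher. That value leaves out the spread between pools. Under other settings the measured T3 versus T2 difference ran from 0.147 to 1.33 in log2. The difference did not pass the adjusted test (adjusted p = 1.00 for T3 versus T2).

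**Figure D3:**
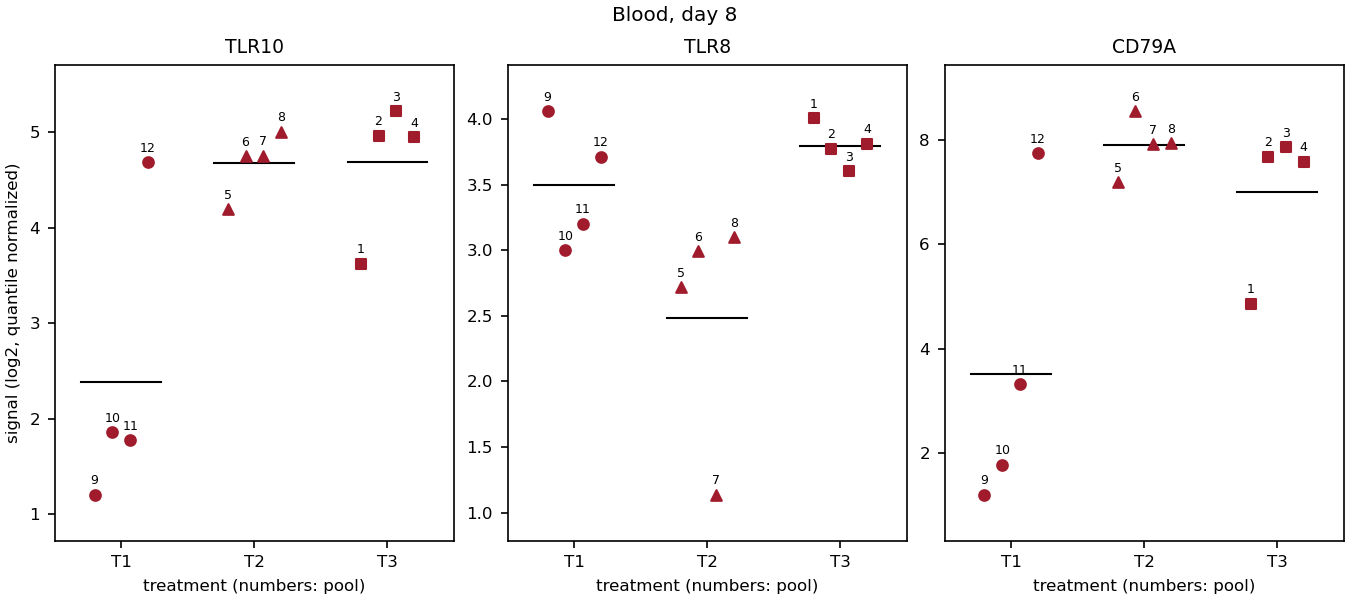
Log2 signal of TLR10, TLR8 and the B cell marker CD79A in the 12 blood arrays of day 8 by treatment; points are pools of 4 piglets with their pool number, and horizontal bars are means. TLR10 in T1 has 3 pools below 2 and pool 12 at 4.68, among the T2 and T3 pools.

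No treatment difference in intestine at day 8 passed the adjusted test. For jejunum 0 of 9 receptors were called by limma in T2 versus T1 (0.0212% of all 28310 genes), T3 versus T1 (0%) and T3 versus T2 (0%), with 2, 0 and 1 at an unadjusted p under 0.05. For ileum the count was also 0 of 9 in T2 versus T1 (0.261%), T3 versus T1 (1.18%) and T3 versus T2 (0.0283%), with 2, 0 and 1 at an unadjusted p under 0.05. TLR4 in ileum had T2 pools at 5.64, 5.47 and 5.58, below all T1 pools (6.79, 6.05, 5.99 and 6.62) and all T3 pools (7.25, 6.33, 6.36 and 6.65). T3 versus T2 was 1.08 (SE 0.26, adjusted p = 0.113), and with the sow set as a replicate block 1.05 (adjusted p = 0.0400). In this ileum the T3 arrays lay on another slide than T1 and T2, so T3 and slide cannot be told apart. In jejunum of day 8 the same holds for T1, which lay on another slide than T2 and T3. TLR4 in jejunum (T2 versus T1 -0.69) and TLR2 in jejunum (-0.65) had the 2 unadjusted jejunum calls. TLR1 in ileum differed by -0.82 in T2 versus T1 (adjusted p = 0.112). It was called, as was TLR10, once ileum T1 pool 12 was left out.

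At day 55 none of the 9 receptors passed the F test over the 3 treatments in jejunum (10.6% of all 30296 genes) or ileum (13%), with 2 and 0 at an unadjusted p under 0.05. The 2 were TLR4 and TLR7 in jejunum. TLR4 was at 6.46, 5.51, 5.42 and 6.01 in T1, 5.47, 6.52 and 5.78 in T2, and 6.80, 6.56, 6.48 and 7.03 in T3. All T3 pools were above all T1 pools, and the T2 pools spread over both (F test adjusted p = 0.0793). As a single contrast T3 versus T1 was past the limits for TLR4 (0.87, SE 0.28, adjusted p = 0.0444). It was lost without any 1 of 13 of the 22 arrays (0.72 to 0.94, adjusted p up to 0.131), with normexp (0.46, under the fold limit), with no filter (adjusted p = 0.0526), with the brightest probe (adjusted p = 0.291) and with jejunum alone (adjusted p = 0.0573). TLR7 ran the other way, at 7.56, 7.92, 7.94 and 8.18 in T1, 7.24, 7.23 and 7.31 in T2, and 6.88, 6.98, 7.30 and 6.95 in T3. Every T1 pool of TLR7 was above every T2 and T3 pool (F test adjusted p = 0.141, T3 versus T1 -0.88). With jejunum fitted alone the F test for TLR7 passed (adjusted p = 0.0114). T3 arrays lay on another slide than T1 and T2 in both tissues, so T3 and slide cannot be told apart at day 55. The value table names these jejunum arrays day 8, and in a fit by those names TLR4 (0.91, adjusted p = 0.0219) and TLR7 (-0.87, adjusted p = 0.0167) were called in T3 versus T1 (18.6% of all genes).

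At day 176 TLR9 and TLR10 in jejunum passed the F test (1.24% of all 28966 genes did), and no receptor did in ileum (0.0104%). At an unadjusted p under 0.05 there were 4 receptors in jejunum and 1 in ileum. TLR10 was at 6.68, 6.75, 7.80 and 6.46 in T1 pools 9 to 12, at 4.08, 5.48 and 3.50 in T2 pools 5, 6 and 8, and at 7.13, 6.83, 7.67 and 5.41 in T3 pools 1 to 4. The T2 pools were below all T1 pools, and T3 pool 4 lay just below T2 pool 6 (F = 17.2, adjusted p = 0.0102). The spot was above background on 4 of 4 T1 arrays, 1 of 3 T2 arrays and 3 of 4 T3 arrays. TLR9 was at 6.12, 7.34, 7.36 and 7.05 in T1, at 5.28, 4.56 and 5.73 in T2 and at 6.99, 6.61, 7.30 and 7.74 in T3. Here the T2 pools lay below all pools of both other treatments (F = 14.3, adjusted p = 0.0223).

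In T2 versus T1, 2 of 9 receptors were called in jejunum (1.6% of all genes), both lower: TLR10 by -2.57 (SE 0.48, adjusted p = 0.00678) and TLR9 by -1.78 (SE 0.40, adjusted p = 0.0275). In T3 versus T2 the same 2 were called (1.14% of all genes), higher by 2.41 (SE 0.48, adjusted p = 0.0167) and 1.97 (SE 0.40, adjusted p = 0.0180). In T3 versus T1 none was called by limma (0% of all genes), with 1 at an unadjusted p under 0.05. These comparisons share their T2 arrays. The T3 arrays of this jejunum lay on another slide than those of T1 and T2, so T3 and slide cannot be told apart here. The median over all genes was 0.26 in T2 versus T1. T1 and T2 arrays of this jejunum shared a slide, and within that slide the differences were -2.43 for TLR10 (adjusted p = 0.203) and -1.70 for TLR9 (adjusted p = 0.278), so neither was called. Fitted in jejunum alone, neither passed the F test (adjusted p = 0.198 and 0.140). Without T2 pool 5 neither receptor passed the F test, without T2 pool 6 only TLR10 did, and without T2 pool 8 only TLR9. Among the contrasts, TLR10 in T2 versus T1 was uncalled without T2 pool 8 (-2.14, adjusted p = 0.0530), and TLR9 without T1 pool 10, 11 or 12 (-1.65 to -1.76, adjusted p from 0.0652 to 0.0743). TLR10 in T3 versus T2 was uncalled without T3 pool 1 or T2 pool 8 (1.98 to 2.29).

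T2 pool 8 was also low in FABP6 (7.40), in TLR3 (6.99, against 9.45 to 9.96 in the other jejunum pools) and in the T cell marker CD3E (8.04, against 11.7 to 13.4). Without it and T3 pool 4, TLR10 differed by -2.14 (adjusted p = 0.0106) and TLR9 by -2.05 (adjusted p = 0.0195) in T2 versus T1. CD79A was at 7.38, 8.11, 10.26 and 7.85 in T1, 5.61, 6.77 and 1.98 in T2, and 10.36, 7.88, 10.69 and 5.84 in T3. CD79A was thus lower in all T2 pools than in all T1 pools. It did not pass the test in T2 versus T1 (-3.61, adjusted p = 0.0900), and its part in the receptor values was not tested. In ileum of day 176 TLR10 was between 8.74 and 9.36 in T1 and between 8.92 and 10.11 in T2. The T2 versus T1 difference was higher in ileum than in jejunum by 2.98 for TLR10 (SE 0.65, interaction adjusted p = 0.0436). In ileum the T1 arrays lay on another slide than the T2 arrays, so treatment and slide cannot be told apart in that part. No other receptor was called in this interaction, where 0.715% of all genes were. Leaving out any 1 of 17 of the 22 arrays of that day ended the call (2.54 to 3.15, adjusted p from 0.0501 to 0.0905).

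**Figure D4:**
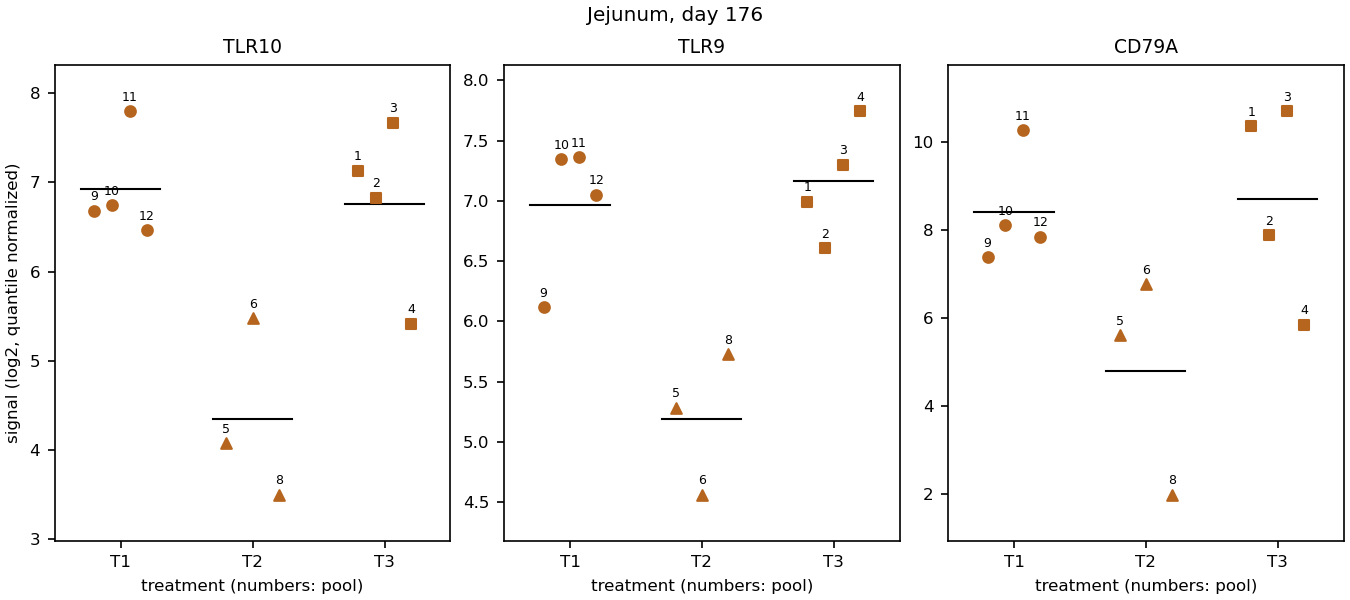
Log2 signal of TLR10, TLR9 and the B cell marker CD79A in jejunum at day 176 by treatment. Points are pools with their pool number, and horizontal bars are means. The 3 T2 pools of TLR10 lie between 3.50 and 5.48, below the 4 T1 pools at 6.46 to 7.80.

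The rest of the pathway was read from a list of 65 adaptors, chaperones, co-receptors, kinases, transcription factors, brakes and outputs, 40 of which had a probe. None of them was called for treatment at day 8, in blood or at day 176. In jejunum at day 55, where no receptor passed, 12 of 39 did in the F test (10.6% of all genes), 11 of them higher in T3 than in T1. MYD88, the adaptor of all TLRs but TLR3, was higher by 1.96 in T2 and 2.63 in T3 (F = 80.0, adjusted p = 2.21e-06). RELA, a subunit of NF-kappaB, was higher by 1.41 and 2.06 (F = 109, adjusted p = 5.31e-07). CNPY3, a chaperone of TLRs, was lower, at -0.58 in T3 versus T1. In ileum at day 55, 3 of 39 passed (13% of all genes), namely RELA (T3 versus T1 1.57), NFKB1 (0.91) and MYD88 (0.81). The value table names these jejunum arrays day 8 and these ileum arrays jejunum day 55. The tissue and day of these pathway results, and the pathway counts by age and tissue below, thus rest on the scanner files' labels.

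With age, 19 of 39 pathway genes were called in jejunum between days 8 and 55 (12 higher, 7 lower, beside 37% of all genes) and 23 of 39 in ileum (15 higher, 8 lower, beside 47.4%). The chemokines CCL5 (2.39) and CCL4 (2.35) led the rises in jejunum, and CD180 (4.48) with its partner LY86 (3.71), which form a receptor of B cells related to TLR4, led those in ileum. LBP, the carrier of lipopolysaccharide, fell by 3.03 in both, beside TRAF6 in jejunum (-1.44) and the scavenger receptor CD36 in ileum (-2.58). From day 55 to day 176, 12 of 39 were called in jejunum (36.9% of all genes), 11 of them lower, with LBP at -2.48 and FOS at -2.33, while CNPY3 rose by 1.59. In ileum 11 of 39 were called (6 higher, 5 lower, beside 28.5%), among them CNPY3 (1.47), IL12B (1.06), LBP (-1.90) and FOS (-1.10).

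Between ileum and jejunum 1 of 39 pathway genes was called at day 8 (IKBKG, -0.59, beside 2.39% of all genes), 20 of 39 at day 55 (11 higher in ileum, 9 lower, beside 39.7%) and 16 of 39 at day 176 (15 higher, 1 lower, beside 28.6%). CD180 was higher in ileum by 2.98 and 2.95 at the later ages, LY86 by 2.80 at day 55 and IL6 by 3.37 at day 176. CD36 was lower by -1.70 and -1.20, and FOS by -1.44 at day 55. In blood against jejunum 27 of 39 were called (10 higher, 17 lower, beside 75.6% of all genes) and against ileum 30 of 39 (13 higher, 17 lower, beside 74%). CD14, the lipopolysaccharide co-receptor, was higher in blood by 4.67 and 4.91 on the scaled values. LY96 led beside it against jejunum (3.11) and LY86 against ileum (3.32). CXCL8 (-5.52 and -5.81) and LBP (-4.90 and -4.13) were the lowest.

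In level order over the 6 places, several steps between neighbours were not called. TLR1, TLR7 and TLR10 were highest in ileum at days 176 and 55, whose steps were uncalled for each of them (0.02, 0.06 and 0.12, adjusted p from 0.823 to 0.916), and the step down to jejunum of day 55 was called for all 3. TLR9 was highest in ileum at days 55 and 176 (step 0.27, adjusted p = 0.398), with jejunum of day 8 next, lower by a further 1.18 (adjusted p = 2.07e-05). TLR2 was highest in ileum at day 55, ileum at day 8 and jejunum at day 8, whose steps of 0.13 and 0.04 were uncalled, and each of the next 3 steps was called. TLR3 was highest in jejunum at day 55, and jejunum at day 176 was next, lower by 0.95 (adjusted p = 8.19e-05). The 4 steps after it were 0.04 to 0.24, none called. For TLR8 no step between neighbours was called.

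The genes most like each receptor were sought among 2262 genes with a symbol, by Pearson correlation of the means over the 18 tissue, day and treatment groups, which share arrays and scan sessions. TLR10 was most like BCAS4 (r = 0.983) and ITGB2 (0.968), and TLR9 was most like BCAS4 (0.934) and UCP2 (0.932). TLR1 was closest to NPM2 and CD180 (0.977 each). TLR7 was closest to STK26 (0.944) and CD70 (0.940), and TLR8 to FABP7 (0.893) and CDC42 (0.871). TLR2 was closest to CPE (0.928) and PCD1B (0.924), TLR3 to CYP1A1 (0.896) and ANXA2 (0.890), TLR4 to RIT1 (0.925) and STAT5A (0.883), and TLR6 to SMAP2 (0.861) and PIK3R5 (0.856). These values describe the 18 means and carry no test.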

How the data were processed

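Arrays were 1-colour porcine Agilent slides. Per the file headers, the deposited intensity of each spot is the processed signal of Agilent Feature Extraction 10.7.3.1, already background-subtracted, on a linear scale. The deposited log2 value table of the authors was used only as an alternative. Per array its columns matched the scanner files for blood and day 176. For days 8 and 55 its columns kept treatment and pool number but held arrays of another tissue or day by the scanner files' labels, so it was left out there. The scanner files' labels name the arrays. As an alternative chosen after seeing the data, arrays took the tissue and day of the table column that holds them (by correlation of their values), without the jejunum array of day 8, T2 pool 8, that no column matched.

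Signals were floored at 1 and log2 transformed. Spots marked as outliers were set missing (1 receptor spot, and 0 receptor spots were saturated). Spots of a probe were averaged, arrays quantile normalized within a fit, and probes kept that exceeded the 20th percentile of every array in at least 1 group. Probes of a gene were averaged. limma 3.58.1 in R 4.3.3 (statmod 1.5.0) fitted 1 mean per group, following the design of the study's analysis of variance. Fits were made for day 8 intestine (23 arrays), blood (12), day 55 (22), day 176 (22), all intestine (67) and all day 8 arrays (35). Array numbers and the spread between pools limit the precision, and p-values measure the spread between pools. Scripts were tested on simulated data.

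Receptors and lists were chosen with earlier results of these data known. Named genes are the receptors, up to 2 called pathway genes with the largest rise and 2 with the largest fall per comparison, and the 2 genes most like each receptor. Where 3 pathway genes were called, all 3 are named. CD3E and CD79A by pool were named after their values were seen, and 1 other marker of the B cell list is not reported here.

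Pools were paired by sow set from the study's supplementary material, since pools of different treatments drew piglets from the same sows. At day 8 the mean correlation of deviations was 0.0988 in jejunum, 0.0732 in ileum and 0.143 in blood for the same set, against -0.0325, -0.0239 and -0.0476 for other sets. At day 55 it was 0.0340 in jejunum and 0.0522 in ileum for the same set, against -0.0111 and -0.0173 for other sets. Blood, jejunum and ileum of a day 8 pool came from the same piglets. Between jejunum and ileum of day 8 that correlation was 0.177 for the same pool, against -0.0593 for other pools. The main fits took these arrays as independent. A pool block was an alternative for tissue comparisons but not for interactions. Alternatives were 75th percentile scaling, normexp on the median signals (offset 50), no filter, a filter on detection, the brightest probe, an intensity trend, each tissue or slide alone, T1 arrays alone, blocks, and each array left out. The slide as a random block could not be fitted for treatments, since each group lay on 1 slide.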

Additional observations from a re-analysis of the deposited data

Results flagged for a closer look

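In 8 of 143 receptor and group combinations of 4 pools, 1 pool stood apart from the other 3 by Dixon's ratio of gap to range, where chance gives about 1 in 20. In jejunum at day 176, T1 pool 9 was the lowest for TLR8 (1.81 against the next at 4.66, ratio 0.89) and for TLR4 (3.86 against 5.29, ratio 0.915), and T1 pool 12 was the lowest for TLR6 (5.47 against 6.12, ratio 0.899). The array of T1 pool 9 had 46.9% of spots well above background, against 59.4% to 74.8% on the other jejunum arrays of that day. The part of array quality in its low values was not tested. In ileum at day 176, T2 pool 7 was the highest for TLR1 (11.76 against 11.24, ratio 0.916). In jejunum at day 8, T2 pool 8 was the lowest for TLR10 (3.98 against 5.96, ratio 0.961) and T2 pool 7 for TLR1 (9.30 against 9.93, ratio 0.916). In blood T3, pool 1 was the lowest for TLR10 (3.62 against 4.95, ratio 0.829) and pool 3 for TLR7 (3.73 against 4.41, ratio 0.952).

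The change differed between ileum and jejunum in 11 of 99 tested interactions. Given as the ileum change minus the jejunum change, those between days 8 and 55 were 3.14 for TLR2, 2.89 for TLR9, 2.17 for TLR10, 0.81 for TLR1, 0.73 for TLR7 and -1.10 for TLR3. Between days 55 and 176 they were 2.66 for TLR8, 1.60 for TLR4, 0.85 for TLR3 and 0.78 for TLR7. With tissue and day named as in the value table, the 6 early ones were called with the opposite sign, and of the late ones TLR4, TLR7 and TLR8 were called with the same sign. For treatment there was 1, TLR10 in T2 versus T1 at day 176, at 2.98.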

How the results depend on the processing

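Recomputed were 98 receptor contrasts that were called or had an unadjusted p under 0.05. Other settings gave 1067 results for them. Of these, 953 kept direction and side of the threshold, 74 lost the call, 10 gained one and 30 turned. With 1 array left out, 3736 of 3822 results were the same, 75 lost the call, 11 gained one and 0 turned. A contrast that was uncalled and stayed so counts as the same, so these are not shares of calls that were kept. The cause of these shifts was not tested, and fewer arrays or genes enter some settings. Of those that turned, 5 did so with the arrays named as in the scanner files. With T1 arrays alone these were TLR10 in blood minus jejunum (-0.747641) and minus ileum (-1.34687), where the T1 blood spot was above background on 1 of 4 arrays, TLR2 in blood minus jejunum (-0.0605382, uncalled at 0.31) and TLR10 in the later age interaction (-0.0549907, uncalled at 1.12), and with 75th percentile scaling TLR6 in that interaction (-0.129274).

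The other 25 turned where arrays took the tissue and day names of the authors' value table, an alternative chosen after seeing the data. In age and tissue comparisons they were, in log2, jejunum from day 8 to 55 (TLR2 3.17725, TLR3 -1.05628, TLR8 -1.04654, TLR9 2.31381), jejunum from day 55 to 176 (TLR3 0.109963), ileum from day 8 to 55 (TLR6 -0.13505, TLR9 -0.474299), ileum minus jejunum at day 8 (TLR9 0.758974), ileum minus jejunum at day 55 (TLR1 -1.56383, TLR10 -3.04632, TLR2 -0.134275, TLR7 -1.81748, TLR9 -2.02914) and the early age interaction (TLR1 -0.799629, TLR10 -2.32614, TLR2 -3.17831, TLR3 1.083, TLR7 -0.69516, TLR8 1.0857, TLR9 -2.78811). In treatment comparisons, none of them called under either naming, they were jejunum day 8 T2 versus T1 (TLR2 0.862838, TLR4 0.0894422), jejunum day 55 T3 versus T2 (TLR10 -0.147108, TLR4 -0.071233) and ileum day 55 T3 versus T2 (TLR8 0.129079). Under these names the count for treatment at day 8 in intestine went from 0 to 2, and the other counts stayed within 1.5 times, although those for age and tissue counted partly different receptors.

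Counts of receptor calls moved as follows. Treatment at day 8 in intestine went from 0 to 1 with the replicate block (TLR4, ileum T3 versus T2) and ran from 0 to 2 with 1 array left out. Blood ran from 0 to 2 (T1 pool 12 left out). Day 55 went from 0 to 1 with 75th percentile scaling, normexp (TLR4 jejunum, both) or each tissue alone (TLR7 jejunum), and ran from 0 to 1 without jejunum T1 pool 9, jejunum T2 pool 6 or ileum T1 pool 9. Day 176 went from 2 to 1 with normexp (TLR9) and to 0 within a slide or each tissue alone, and ran from 0 (without T2 pool 5) to 3 (without T1 pool 9, adding TLR4). The jejunum age count of 13 went to 8 with normexp, 8 with the slide as a random block (correlation 0.102) and 7 with T1 arrays alone, and ran from 11 to 13 with 1 array left out. The treatment interaction at day 176 went from 1 to 0 with no filter or with the authors' table, ran from 0 to 1 with 1 array left out, and with normexp was TLR1 in place of TLR10. The age interactions went from 10 to 4 with T1 arrays alone and ran from 9 to 11. The counts for age in ileum (5), ileum against jejunum (15) and blood against intestine (13) stayed within 1.5 times.

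With the replicate block by sow set, TLR7 in jejunum at day 55 also passed in T3 versus T1 (-0.88, adjusted p = 0.0259), and the block changed no other receptor call. The sow sets were assumed, not given, for that day. Dim signals limit TLR6, TLR8, TLR9 and TLR10 in blood most.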
